A study of Mus musculus with 6 samples.

Results

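The genes of MHC class I antigen presentation were followed in 6 mice with lung cancer. The set holds 10 genes chosen by name, all found among the 18238 genes of the deposited tables: the classical heavy chain genes H2-K1 and H2-D1, the nonclassical heavy chain genes H2-Q4, H2-Q7 and H2-T23, the light chain gene B2m, the transporter genes Tap1 and Tap2, the loading gene Tapbp and the transactivator gene Nlrc5. RNA was sequenced from 3 mice given artemisinin, an antimalarial sesquiterpene lactone, and from 3 model mice that the labels describe only as lung cancer and model. Both groups therefore carried the disease, and no healthy group was analysed here. The sources used here do not give the tissue, strain, age, dose or duration, and each group is described by its label alone. The labels do not say how the mice were kept or sampled, and p-values measure only the spread between these 6 libraries, part of which may be technical. Lung epithelial genes were high in every library, with 2974 to 35140 normalised CPM (counts relative to the scaled library size) of Sftpc, the surfactant protein C gene, and 7164 to 66750 of Scgb1a1, the club cell secretory protein gene.

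MHC class I molecules show peptides from inside the cell to CD8 T cells and to receptors of natural killer cells, and nearly all nucleated cells carry them. Proteasomes cut proteins into peptides, the TAP1 and TAP2 dimer moves the peptides into the endoplasmic reticulum, and tapasin with its partner chaperones loads them onto a heavy chain paired with beta-2 microglobulin. Interferons raise the expression of the whole pathway, and NLRC5 drives transcription through a conserved promoter module that it shares with the RFX, CREB and NF-Y factors. In lung, leukocytes and endothelium are known to express class I strongly, and loss of class I is a known route by which tumours escape T cells.

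Several of these genes hold the letters of the shared control module in their promoters. The sequences were taken from RefSeq (GRCm38.p6) and run from 250 bases before to 50 bases after the start listed with each promoter. For H2-K1 that start lies inside the annotated gene (33996012 to 34000619), not at its outer end. They are shown for the classical pair, whose levels differed most between mice, and for H2-T23, B2m and Tap1. H2-T23, B2m and Tap1 held exact matches to fewer of the 4 motifs below. Other forms of these elements were not searched for, so a missing match does not show that an element is absent. Capitals mark exact matches on either strand to 4 motifs: GGGGATTCCC and AGTTTCACTT, read from the H2-K1 promoter where its enhancer A, an NF-kB site, and its interferon response element lie, TGACG of the X2 box, also called site alpha, and CCAAT of the Y box, written ATTGG where it lies on the other strand. No match overlapped another. H2-K1 lies at chr17:34000298-34000597 on the minus strand, H2-D1 at chr17:35262844-35263143 on the plus strand, H2-T23 at chr17:36032652-36032951 on the minus strand, B2m at chr2:122147437-122147736 on the plus strand and Tap1 at chr17:34187306-34187605 on the plus strand.
H2-K1: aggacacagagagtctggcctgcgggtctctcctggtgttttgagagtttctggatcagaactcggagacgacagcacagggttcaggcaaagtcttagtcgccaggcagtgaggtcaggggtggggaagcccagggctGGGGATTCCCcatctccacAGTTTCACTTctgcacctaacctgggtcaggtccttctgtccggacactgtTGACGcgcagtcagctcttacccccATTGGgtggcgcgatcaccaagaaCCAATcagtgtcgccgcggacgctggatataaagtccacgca
H2-D1: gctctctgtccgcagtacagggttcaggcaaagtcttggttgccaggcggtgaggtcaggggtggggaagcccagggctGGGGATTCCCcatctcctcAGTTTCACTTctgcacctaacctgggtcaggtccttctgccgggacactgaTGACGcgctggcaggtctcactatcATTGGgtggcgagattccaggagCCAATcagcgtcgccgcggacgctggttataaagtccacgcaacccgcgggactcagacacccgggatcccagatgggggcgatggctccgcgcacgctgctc
H2-T23: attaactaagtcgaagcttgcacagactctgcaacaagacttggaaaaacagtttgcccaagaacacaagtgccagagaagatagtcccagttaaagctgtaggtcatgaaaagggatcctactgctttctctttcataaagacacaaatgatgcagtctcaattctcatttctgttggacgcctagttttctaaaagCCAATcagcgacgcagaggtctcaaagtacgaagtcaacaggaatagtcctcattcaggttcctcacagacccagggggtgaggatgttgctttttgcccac
B2m: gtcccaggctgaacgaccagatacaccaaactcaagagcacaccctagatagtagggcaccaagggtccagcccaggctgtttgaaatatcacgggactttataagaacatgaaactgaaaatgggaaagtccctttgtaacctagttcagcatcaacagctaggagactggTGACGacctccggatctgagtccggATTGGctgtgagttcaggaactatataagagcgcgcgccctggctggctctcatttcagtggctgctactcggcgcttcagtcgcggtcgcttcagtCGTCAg
Tap1: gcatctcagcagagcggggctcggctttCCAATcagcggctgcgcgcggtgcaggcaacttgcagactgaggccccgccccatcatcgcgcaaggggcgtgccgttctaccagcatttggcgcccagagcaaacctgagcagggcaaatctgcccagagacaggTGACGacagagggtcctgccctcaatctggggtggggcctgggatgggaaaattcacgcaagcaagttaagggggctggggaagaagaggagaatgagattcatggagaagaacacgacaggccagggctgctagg

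Promoters of 8 of the 10 genes were matched, and those of Tap2 and Nlrc5 were not used here. GGGGATTCCC was in 3 of these 8 windows (H2-K1, from which it was read, H2-D1 and H2-Q7) and in 0.104% of 27025 mouse promoters. AGTTTCACTT, also read from H2-K1, was in 4 of the 8 (the same genes and H2-Q4) and in 0.163% of all promoters. Among the 8, both strings were found only in heavy chain genes, which are near copies of each other, so these matches are not independent. TGACG was in 6 of the 8, all but H2-T23 and Tapbp, against 21.0% of promoters, and CCAAT was in all 8 against 37.9%. In H2-K1 and H2-D1 the motifs stood in one order. The NF-kB site was farthest from the listed start, at −111 and −171 bases, and TGACG at −41 and −101. The H2-K1 window lies within the annotated gene, so its distances cannot be set beside those of H2-D1. Tap1 lies head to head with the immunoproteasome gene Psmb9, with 226 bases between their annotated starts, so the same TGACG falls in both windows. These matches describe the reference letters and say nothing of binding in these mice.

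None of the 10 genes passed an adjusted p of 0.05 between artemisinin and model mice in the edgeR quasi-likelihood test, with p-values adjusted by the Benjamini-Hochberg method over all 15242 genes tested, where 4.47% of genes were called. The fitted log2 fold changes were positive for 5 genes and negative for 5, with a median of 0.06 against 0.04 for all tested genes. Only Tap2 had an unadjusted p under 0.05, 1 of 10, while 24.7% of all genes did. DESeq2 and limma-voom also called 0 of the 10. The peptide transport, loading and transactivator genes all stood above 0 and 4 of the 5 heavy chain genes and B2m below it. These signs held in every alternative run for Tap2, Tapbp, Nlrc5, H2-K1, H2-Q4, H2-Q7 and B2m, and turned for H2-D1, H2-T23 and Tap1, for H2-D1 and H2-T23 also when libraries were scaled by their totals alone.

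**Figure D1:**
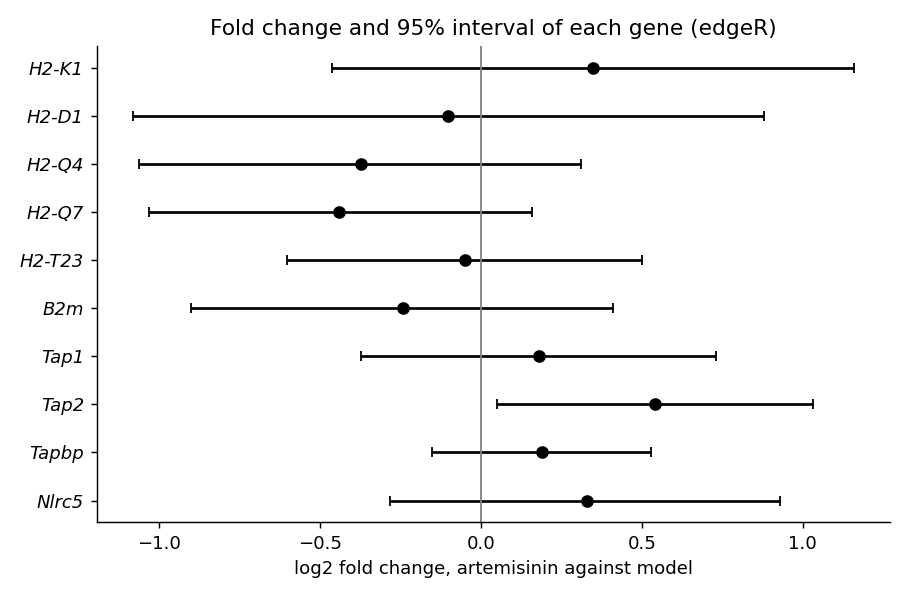
Log2 fold change of each of the 10 genes, artemisinin against model, with the 95% interval from edgeR. The interval of Tap2 runs from 0.05 to 1.03, and those of the other 9 genes include 0.

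Levels between genes were compared as FPKM, counts relative to the length of the gene and the size of the library, as the authors deposited them. B2m was highest, with 1296 to 2516 FPKM over the 6 libraries, and H2-D1 came second, with 338.7 to 915.5 FPKM. Neither range overlapped that of the next gene. H2-T23, which encodes Qa-1, followed with 158.4 to 294.1 FPKM, then H2-Q4 with 77.0 to 189.5, Tapbp with 74.4 to 111.4, H2-K1 with 36.5 to 109.0, Tap2 with 36.5 to 74.7 and Tap1 with 20.4 to 41.0 FPKM. From H2-T23 down to Tap1 each range overlapped that of its neighbour. H2-Q7, a Qa-2 gene, had 6.09 to 11.8 FPKM and Nlrc5 4.78 to 10.04, and their ranges overlapped too. The low level of the transactivator did not limit its measurement, as Nlrc5 had at least 1214 counts in every library.

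The heavy chain genes are near copies of each other, so reads can fall to more than 1 of them. Of all 100-base windows in the reference transcripts of H2-Q7, 12% also occurred exactly in a transcript of another gene, most often H2-Q10. H2-Q9 had no transcript under that name in the reference used, so sharing with H2-Q9 was not measured and the shares may be too low. The share was 3.59% for H2-D1, 3.15% for H2-T23, 2.16% for H2-Q4 and 0.957% for H2-K1, and 0 for B2m, Tap1, Tap2 and Nlrc5. Levels of H2-Q7 and of H2-Q6 (10.8%) are therefore less certain than those of the genes with a share of 0. These windows belong to the reference genome, and the sources used here do not name the strain of these mice. Class I heavy chain genes differ in sequence between mouse strains, and whether reads of other alleles were counted alike was not tested, a limit on the levels of H2-D1, H2-K1 and H2-Q2 and on their ratios between libraries.

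H2-D1, the classical heavy chain gene on chromosome 17 (35263094 to 35267497, GRCm38), had 1212, 1263 and 629.5 normalised CPM in artemisinin replicates 1, 2 and 3 and 1075, 598.5 and 1657 in model replicates 1, 2 and 3. Artemisinin replicate 3 and model replicate 2 stood low and close to each other, and the other 4 libraries lay above both, so the groups overlapped. The means were 1035 ± 352 and 1110 ± 529.9 (SD, n = 3 mice each), and the log2 fold change was −0.10 with an SE of 0.42 (edgeR adjusted p = 0.894) and a 95% interval of −1.08 to 0.88. A change of up to about this size in either direction could not be told from none with these mice. Within the model group the highest H2-D1 value was 2.77 times the lowest, a ratio reached by 1.79% of the 12482 genes averaging 5 CPM or more, whose median ratio was 1.21.

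H2-K1 (chromosome 17, 33996012 to 34000619) had 218.0, 154.9 and 220.5 normalised CPM with artemisinin and 187.8, 79.3 and 199.2 in the model. Only model replicate 2 stood apart, below all other libraries, and its ratio to the highest model value, 2.51, was reached by 2.55% of genes. The fold change of 0.35 ± 0.35 on the log2 scale (SE; edgeR adjusted p = 0.553) became 0.01 without that library. The pair did not follow each other in artemisinin replicate 3, where H2-K1 was the highest of the 6 and H2-D1 the second lowest. H2-D1 FPKM exceeded H2-K1 FPKM 3.51-fold there and between 6.84-fold and 10.22-fold in the other 5 libraries.

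H2-Q4 (35379617 to 35384674) had 228.8, 139.6 and 256.7 normalised CPM with artemisinin and 358.4, 244.1 and 206.9 in the model. Artemisinin replicate 2 was lowest and model replicate 1 highest, and the others interleaved (log2 −0.37 ± 0.29, SE; edgeR adjusted p = 0.452). H2-Q7 (35439140 to 35443773) had 8.83, 10.8 and 12.5 normalised CPM with artemisinin against 11.4, 13.3 and 18.8 in the model, again overlapping (log2 −0.44 ± 0.25, SE; edgeR adjusted p = 0.324). H2-T23 (36029977 to 36032701), whose product presents leader peptides of other class I chains to the inhibitory receptor CD94/NKG2A, had 267.1, 211.1 and 367.3 normalised CPM with artemisinin against 290.0, 334.9 and 251.0 in the model. Its fold change was −0.05 ± 0.24 (log2, SE; edgeR adjusted p = 0.905), with an interval of −0.60 to 0.50.

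B2m (chromosome 2, 122147687 to 122153082), the invariant light chain without which most class I molecules do not reach the surface, had 1051, 1286 and 2047 normalised CPM with artemisinin and 1640, 1759 and 1787 in the model. The model values lay within 1.09-fold of each other, and the artemisinin values spread 1.95-fold on both sides of them. The log2 fold change was −0.24 ± 0.28 (SE; edgeR adjusted p = 0.611).

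**Figure D2:**
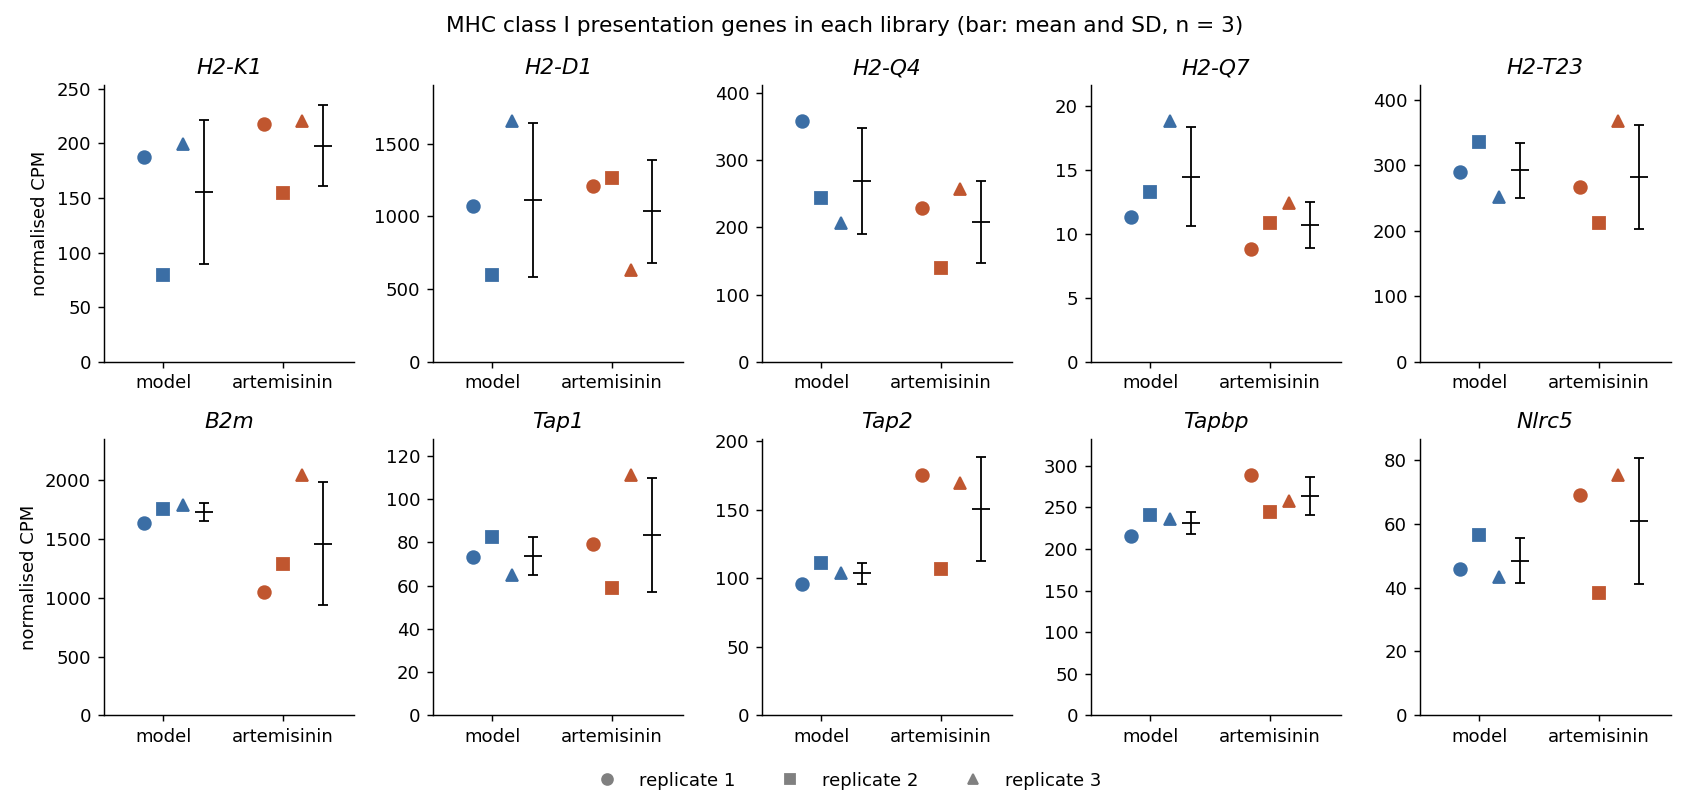
Normalised CPM of each of the 10 genes in every library, model in blue and artemisinin in red, with the symbol giving the replicate number and the bar the mean and SD (n = 3); each axis starts at 0. Model replicate 2 is low for H2-K1 and H2-D1, and for B2m the 3 artemisinin values lie on both sides of the model values.

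The make-up of the heavy chain transcripts differed between mice of the same group. H2-D1 took 61.4%, 69.6% and 40.5% of the summed FPKM of the 5 heavy chain genes in artemisinin replicates 1 to 3 and 54.6%, 44.1% and 69.9% in model replicates 1 to 3. H2-T23 took 31.1% in artemisinin replicate 3 and 32.6% in model replicate 2, and 14.0% to 19.4% in the other 4. The libraries lowest in H2-D1 were thus the highest in H2-T23. The summed heavy chain FPKM was 0.667 ± 0.278 times that of B2m with artemisinin and 0.544 ± 0.144 times in the model (SD, n = 3 mice each). By library the ratio was 0.928, 0.697 and 0.376 with artemisinin and 0.594, 0.381 and 0.656 in the model, so the groups overlapped.

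**Figure D3:**
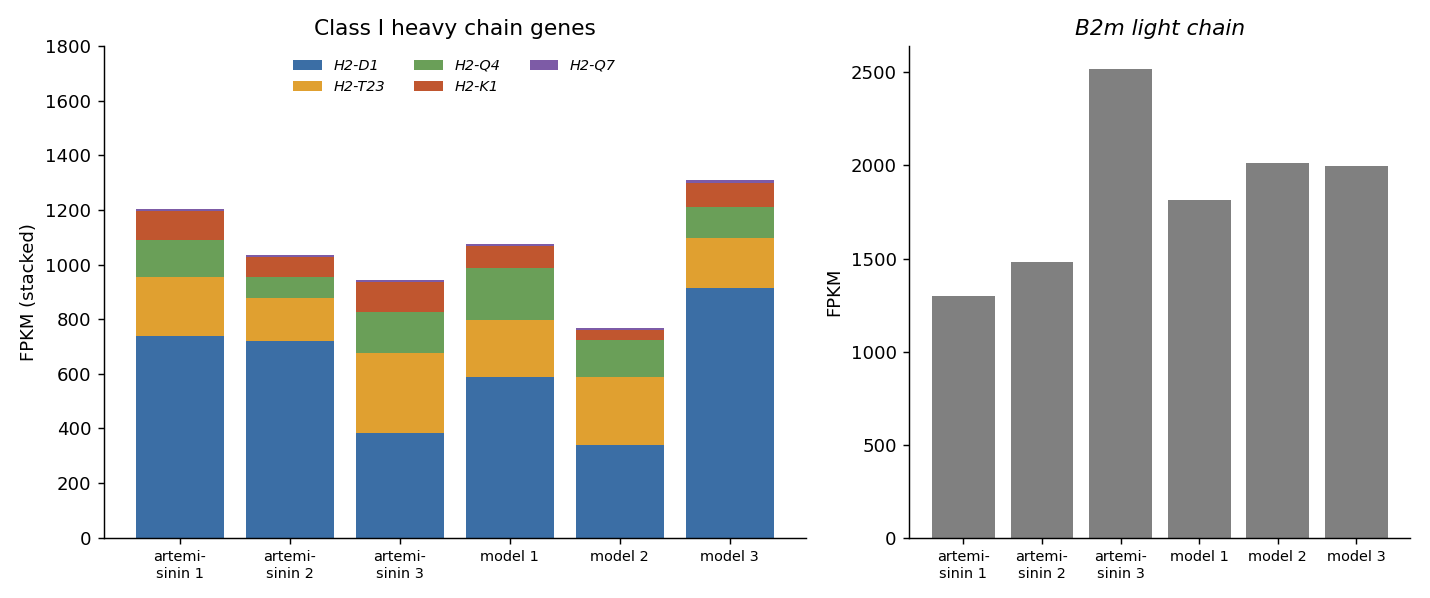
Deposited FPKM in each of the 6 libraries, stacked over the 5 heavy chain genes on the left and for B2m on the right. The H2-D1 part is smallest in artemisinin replicate 3 and model replicate 2, and B2m is highest in artemisinin replicate 3, at 2516 FPKM.

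Tap2, 1 of the 2 subunits of the peptide transporter (chromosome 17, 34204479 to 34216321), came closest to a difference. It had 175.6, 107.0 and 169.7 normalised CPM with artemisinin and 95.9, 111.3 and 103.8 in the model. Artemisinin replicates 1 and 3 lay above all model values, and artemisinin replicate 2 lay among them. The log2 fold change was 0.54 ± 0.21 (SE; edgeR unadjusted p = 0.0341, adjusted p = 0.171). Without artemisinin replicate 2 it was 0.74 and passed (edgeR adjusted p = 0.0312), and over all 15 alternatives the adjusted p ran from 0.0312 to 0.408. That library also stood apart in markers of other tissues: the summed level of 8 skeletal muscle markers was 5755 CPM in it and at most 56.6 in the other 5, and that of 8 keratinocyte markers 627.8 against at most 22.4.

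Tap1, the partner subunit (34187556 to 34197225), had 79.5, 59.0 and 111.4 normalised CPM with artemisinin and 73.1, 82.8 and 65.2 in the model, and the artemisinin values lay on both sides of the model values (log2 0.18 ± 0.24, SE; edgeR adjusted p = 0.659). Per length, Tap2 exceeded Tap1 2.54-fold, 2.09-fold and 1.75-fold with artemisinin and 1.51-fold, 1.55-fold and 1.83-fold in the model, ranges that overlapped. Tapbp, the tapasin gene (33919478 to 33929290), had 289.4, 243.9 and 257.6 normalised CPM with artemisinin and 215.8, 241.4 and 235.5 in the model. It was the only one of the 10 whose groups did not overlap, where 33.6% of all tested genes did not overlap, 16.3% with artemisinin above, and the gap between the nearest values was small (log2 0.19 ± 0.15, SE; edgeR adjusted p = 0.444).

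Nlrc5, the class I transactivator (chromosome 8, 94434335 to 94527272), had 68.9, 38.2 and 75.3 normalised CPM with artemisinin and 45.8, 56.3 and 43.3 in the model. As for Tap2, artemisinin replicates 1 and 3 lay above the model and replicate 2 did not (log2 0.33 ± 0.26, SE; edgeR adjusted p = 0.456). Without artemisinin replicate 2 the value was 0.57 (edgeR adjusted p = 0.0764). Over the 15 alternatives it ran from 0.11 to 0.57.

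Nlrc5 and several genes of the pathway shared their lowest and highest libraries. Nlrc5, Tap1, H2-T23, the immunoproteasome genes Psmb8 and Psmb9, and H2-T22 all had their lowest value in artemisinin replicate 2 and their highest in artemisinin replicate 3, a grouping chosen after the values were seen. Psmb9, which shares its promoter region with Tap1, had 76.7, 48.0 and 92.6 normalised CPM with artemisinin and 60.5, 71.8 and 62.2 in the model. Irf1, an interferon-induced activator of class I genes, followed the same order at its extremes, with 103.5 normalised CPM in artemisinin replicate 2 and 159.6 in replicate 3. H2-K1, H2-D1, H2-Q4, H2-Q7, B2m, Tap2, Tapbp and the immunoproteasome gene Psmb10 did not. Tap2, Tapbp and Psmb10 were highest in artemisinin replicate 1, at 175.6, 289.4 and 83.9 normalised CPM, and B2m was lowest there. T cell markers moved with this order: the sum of 9 of them was 142.7 CPM in artemisinin replicate 2, 340.0 in replicate 3 and 154.8 to 206.7 in the other 4, none of the 9 was called, and none was at 0 in a library. Cd8a, 1 of these 9 and so part of the sum, was lowest and highest in these libraries, at 17.4 and 44.2 normalised CPM. The part of T cells in the order was not tested, and in bulk RNA the number of cells and the RNA per cell cannot be told apart.

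**Figure D4:**
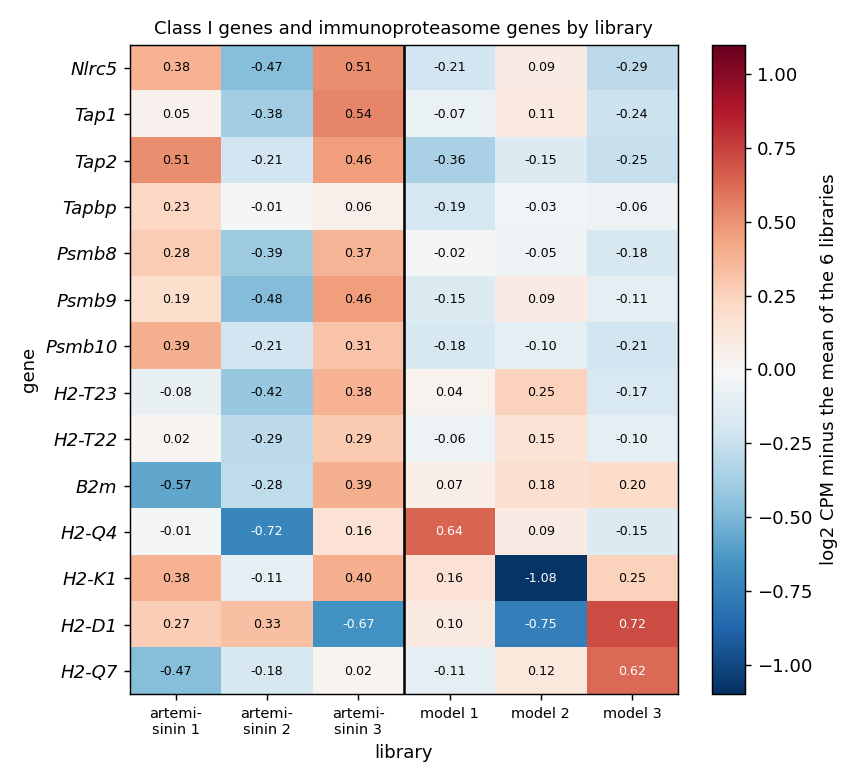
Log2 normalised CPM of the 10 class I genes, 3 immunoproteasome genes and H2-T22 in each library, as the difference from the mean of the 6 libraries; the line separates artemisinin from model. Nlrc5, Tap1, Psmb8, Psmb9, H2-T23 and H2-T22 are lowest in artemisinin replicate 2 and highest in replicate 3, while H2-D1 is at −0.67 in artemisinin replicate 3 and −0.75 in model replicate 2.

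Outside the set, the genes whose pattern over the 6 libraries was most like the mean standardised level of the 10 were Pigr, which encodes the epithelial receptor that carries IgA into the airway, Ing3, Cnot8, Tmem131l and Mdn1, with Pearson r of 0.995, 0.970, 0.968, 0.965 and 0.960. They were the top of 12511 genes searched over 6 points, and the values are given as a description. Pigr had 160.4, 92.7 and 222.9 normalised CPM with artemisinin and 126.1, 125.4 and 138.4 in the model.

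Further heavy chain genes of the H2 complex were not called either. Of 24 listed, 13 were in the table and 10 were tested, and 0 were called, with a median log2 fold change of −0.16. H2-M5 had 0.514 ± 0.184 normalised CPM in model mice and 1.59 ± 0.674 in treated mice, and H2-Q9 11.6 ± 3.49 and 6.85 ± 1.501 (SD, n = 3 mice each; edgeR adjusted p = 0.143 and 0.188). H2-Q2, picked for its pattern, had 5.21 normalised CPM in artemisinin replicate 3 and 5.47 in model replicate 2 against 14.6 to 20.6 in the other 4, the libraries that were low and high for H2-D1. H2-Q2 shared 5.09% of its windows with other genes, all of them with H2-Q1. The share of H2-Q9 was not measured, so its level is less certain. H2-T3, H2-M9 and H2-M10.2 were at or below 0.286 CPM in every library and were not tested.

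Class I-like genes outside the complex were tested for 12 of 17 entries, and 0 were called, with a median of −0.09. The lowest adjusted p belonged to genes for ligands of the activating receptor NKG2D. H60b had 0.998, 0.599 and 0.487 normalised CPM with artemisinin against 22.1, 3.89 and 2.87 in the model (log2 −3.80 ± 0.88, SE; edgeR adjusted p = 0.0573), and Raet1e 0.148, 0.756 and 3.89 against 22.4, 9.57 and 21.8 (log2 −3.47 ± 0.96, SE; edgeR adjusted p = 0.0888). The groups did not overlap for either gene, and all artemisinin values were below the model. Of all 15242 tested genes 33.6% did not overlap, and 2639 had all artemisinin values below the model. The Raet1e value in artemisinin replicate 1 was near the floor, as 3 counts came to 0.117 CPM in that library. Of the 15 alternatives DESeq2 alone called H60b (adjusted p = 2.85e-05), and in the other 14 its adjusted p ran from 0.0557 to 0.186, the last with limma-voom. Model replicate 1 was the highest for H60b, and without it the log2 fold change was −2.29 (edgeR adjusted p = 0.155). Raet1e passed with DESeq2 (adjusted p = 0.000726), with limma on log2(FPKM + 1) (adjusted p = 0.039) and without artemisinin replicate 3, where its log2 fold change was −5.32 (edgeR adjusted p = 0.0286). In the other 12 alternatives its adjusted p ran from 0.0586 to 0.282. Raet1e shared 26.8% of its 100-base windows with other genes, mostly Raet1d, and H60b 3.21%, all with Raet1e, so the level of Raet1e in particular is uncertain.

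Peptide supply and loading showed no called gene. Among 8 immunoproteasome and activator genes the median was 0.18, with 6 above 0, and Psme2, a proteasome activator subunit, and Psmb10 had 77.7 ± 3.01 and 57.4 ± 2.28 normalised CPM in model mice and 97.5 ± 18.8 and 73.1 ± 15.3 in treated mice (SD, n = 3 mice each; edgeR adjusted p = 0.257 and 0.262). The 3 constitutive catalytic genes tested had a median of −0.01, and Psmb6 and Psmb7 had log2 fold changes of 0.23 and −0.18. Among 8 peptide trimming genes the median was −0.11. Lap3, a leucine aminopeptidase gene, had 105 ± 25.3 normalised CPM in model mice and 60.6 ± 10.8 in treated mice (edgeR adjusted p = 0.0825), and passed with DESeq2 alone (adjusted p = 0.0106), the other 14 alternatives giving 0.0548 to 0.27. Thop1 had a log2 fold change of 0.34. Among 10 genes listed for peptide loading and for general protein folding in the endoplasmic reticulum, 9 were below 0, with a median of −0.22. Of all 15242 tested genes 7138 were below 0. P4hb, a disulfide isomerase gene, had 714.4 ± 108.6 normalised CPM in model mice and 503.7 ± 87.1 in treated mice (edgeR adjusted p = 0.189), and the tapasin-related gene Tapbpl 51.3 ± 1.86 and 41.4 ± 4.46 (edgeR adjusted p = 0.203).

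Genes that control class I transcription were also not called, 0 of 22, with a median of 0.05. Irf7, a mediator of type I interferon responses, had 81.8, 47.0 and 65.6 normalised CPM with artemisinin and 18.7, 38.2 and 23.9 in the model, without overlap (log2 1.27 ± 0.31, SE; edgeR adjusted p = 0.0645). It passed with DESeq2 (adjusted p = 0.00198) and without artemisinin replicate 2 (edgeR adjusted p = 0.0369), and in the other 13 alternatives the adjusted p ran from 0.0589 to 0.228, the last without model replicate 1. Groups that did not overlap were found for 33.6% of all tested genes, 16.3% with artemisinin above. Irf8 had a log2 fold change of 0.56 (edgeR adjusted p = 0.168). Rfx5, a subunit of the RFX complex to which NLRC5 binds, had 39.2 ± 1.12 and 39.5 ± 9.87 normalised CPM in model and artemisinin (SD, n = 3 mice each).

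Of 7 interferon receptor and ligand genes tested 0 were called, with a median of 0.01. Ifngr1, the ligand-binding chain of the interferon gamma receptor, had 219.0, 233.1 and 266.9 normalised CPM with artemisinin and 149.2, 160.6 and 153.3 in the model, without overlap (log2 0.63 ± 0.14, SE; edgeR adjusted p = 0.0537). It passed in 6 of the 15 alternatives, among them DESeq2 (adjusted p = 0.000279) and scaling by library totals (edgeR adjusted p = 0.0358). In the other 9 the adjusted p ran from 0.0525 to 0.226, with 0.118 with the replicate number as a block and 0.222, 0.164 and 0.226 without model replicates 1, 2 and 3. As for Irf7, such a lack of overlap was found for 33.6% of all tested genes, 16.3% with artemisinin above. Ifng itself had 0.334 to 2.29 normalised CPM, and Ifnar2 a log2 fold change of 0.20.

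Of the pathway lists, only that of receptors held called genes. All 9 tested were above 0, with a median of 0.90, and 3 rose, where 2.17% of all genes did. Pirb, an inhibitory receptor of myeloid and B cells that binds class I, rose 2.74-fold, from 33.2 ± 1.54 in model mice to 91.1 ± 14.6 normalised CPM in treated mice (SD, n = 3 mice each) (log2 1.46 ± 0.15, SE; edgeR adjusted p = 0.00984). Lilrb4a, whose product gp49B inhibits myeloid and mast cells, and Cd244a, the receptor for CD48, are best known for ligands other than class I, and rose 2.37-fold and 2.46-fold (edgeR adjusted p = 0.0166 and 0.0251). The class I coreceptor genes Cd8a and Cd8b1 had log2 fold changes of 0.69 and 0.90 (edgeR adjusted p = 0.247 and 0.157). Without artemisinin replicate 2 edgeR called 4 of the 9, without model replicate 1 it called 0, without model replicate 3 also 0, and without model replicate 2 only Pirb (edgeR adjusted p = 0.0494). Cd244a was also lost with the replicate number as a block (edgeR adjusted p = 0.0623). Of the 100-base windows of Pirb 20.7% occurred in another gene, most often Gm14548 and Pira2, so its level is less certain.

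Some leukocyte marker lists were higher with artemisinin, and others were not called. The summed level of 10 markers of all leukocytes was 1976 to 2582 CPM with artemisinin and 1248 to 1399 in the model, and 4 of the 10 rose. Neutrophil markers summed to 901.3 to 4947 against 171.5 to 236.1, with 6 of 10 risen, where 2.17% of all tested genes rose. Those of macrophages and monocytes overlapped, at 792 to 1266 against 733 to 828.6, with 3 of 10 risen and 1 fallen. Of the T cell, NK cell, B cell and dendritic cell markers 0 were called. None of these markers was at 0 in a library. Their part in the receptor levels was not tested. Markers of alveolar type 2 cells summed to 6690 to 20950 CPM with artemisinin and 49300 to 73480 in the model, with 6 of 10 fallen, and those of endothelium to 2217 to 4146 and 2064 to 3280, with 0 called. The class I genes are expressed in all of these cells, and the part of cell composition in their levels was not tested.

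Most of the set lies in the H2 complex. From the start of H2-K1 to the end of H2-M2 (chromosome 17, 33996012 to 37483554, GRCm38) the table held 145 genes, of which 130 were tested. Of these 2 rose and 1 fell, where 4.47% of all tested genes were called. The median log2 fold change was 0.14, against 0.04 for all tested genes. The called genes were not of class I. Gpsm3 and Lst1, both expressed in leukocytes, rose 2.03-fold and 3.86-fold (edgeR adjusted p = 0.0311 and 0.0327), and H2-DMb1, a class II loading gene, fell with a log2 fold change of −1.07 (edgeR adjusted p = 0.0388). All 3 lost the call without model replicate 1, 2 or 3, and H2-DMb1 also with scaling by library totals (edgeR adjusted p = 0.0556).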

How the data were processed

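Polyadenylated RNA of 6 mice was sequenced (TruSeq Stranded mRNA, per the labels' protocols). The build was GRCm38 (mm10), per the submitters' processing notes. The aligner, counter, annotation and strand setting are not given in the sources used here. Raw read counts per gene and FPKM were deposited by the authors, and every value column belonged to 1 sample. Each sample was taken as 1 mouse, which the sample titles do not state. Libraries held 25566173 to 34745497 counts, and 3 counts in the smallest came to 0.117 CPM. The deposited FPKM equalled counts divided by total and length (largest relative gap 3.4e-07 over 15462 genes), so they are not independent. The test was edgeR 4.0.16 under R 4.3.3 on the counts (filterByExpr, TMM, robust glmQLFit, glmQLFTest, threshold 0.05). On data simulated with these library sizes it recovered 23% of 2-fold and 82% of 4-fold changes, and 7.89% of its calls were false. Only a small share of genes was changed in the simulation, while 24.7% of the real genes tested had an unadjusted edgeR p under 0.05. The rates in the real data may therefore differ. SEs came from fold change and F, and 95% intervals from the t distribution on the fit's degrees of freedom. With 3 against 3, an exact permutation p cannot go below 0.1. Alternatives were DESeq2 1.42.0, limma 3.58.1 (voom, and trend on log2(FPKM + 0.1) or log2(FPKM + 1) at mean FPKM of at least 0.5, or unfiltered), other scalings, no filter, a replicate block and each library left out. FPKM fold changes understate low genes. Coordinates came from RefSeq GRCm38.p6, where 18124 of 18238 genes matched by Entrez number, and shared windows from GENCODE M21 transcripts. The members and lists were chosen with earlier results of these data known. By rule, the text names all 10 members and, of each list, the called genes or else the 2 with the smallest p, and the 5 genes of at least 5 CPM most like the members in log2(CPM + 1). Other genes named were chosen after their values were seen.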

Additional observations from a re-analysis of the deposited data

How the results depend on the processing

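The count of class I genes called was 0 in 14 of 15 alternatives and ranged from 0 to 1 when 1 library was left out, the 1 being Tap2 without artemisinin replicate 2. The log2 fold change of H2-D1 turned to 0.01 with library totals and to 0.05 with limma on FPKM under each of its 3 settings, and ranged from −0.44 to 0.30 with 1 library left out. That of H2-T23 turned to 0.06 with library totals and to 0.02 with limma on FPKM, and ranged from −0.32 to 0.12. Tap1 ranged from −0.12 to 0.37 and Tap2 from 0.41 to 0.74 with 1 library left out. Scaling by library totals moved the median of all genes from 0.04 to 0.15, and that fit called 464 genes higher and 319 lower, against 331 and 351. The number of receptor genes that rose ranged from 0 to 4 with 1 library left out. Over all genes DESeq2 called 1234 higher and 1052 lower, limma on unfiltered FPKM 240 and 198, and fits without 1 library 6 to 670 higher and 11 to 713 lower. With the replicate number as a block edgeR called 65 and 63 genes, and of the named genes Cd244a, H2-DMb1, Gpsm3 and Lst1 lost their call. Same-numbered libraries deviated together with correlations of 0.0103, −0.154 and 0.0505 over 14390 genes, so the numbers were not taken as pairs. The 10 genes had at least 239 counts in each library.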
